A study of Ovis aries with 16 samples.

Results

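The comparison described here set 4 fetal sheep given a brachiocephalic occlusion against 4 control fetuses, none of which had received estradiol, and measured messenger RNA in the hypothalamus. It used 8 of the 16 arrays in the series, those titled as occlusion or control, with 1 fetus per array. Control fetuses had a sham occlusion period and no other treatment. BCO fetuses had the brachiocephalic artery occluded for 10 min and then recovered for 50 min. The hypothalamus was collected 1 h after occlusion or sham began, at 124 to 128 days of a gestation of 147 days. All fetuses, controls included, carried catheters implanted beforehand, and blood was drawn from them several times during the experiment, so surgery and sampling were shared by both groups. The other 8 fetuses had estradiol at 250 ug per day for 5 days and then a sham period (the estradiol group, n = 4) or an occlusion (the estradiol+BCO group, n = 4). They entered the fit for the spread between animals and served for the comparison with estradiol.

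The brachiocephalic artery carries blood to the head and upper body of the sheep, so closing it lowers pressure and flow in the fetal brain. Such episodes are known to set off reflex hormone responses in the late-gestation fetus, including release of ACTH driven from the hypothalamus. The hypothalamus is a set of small nuclei whose neurons are told apart by the peptides they make. Neurons of the arcuate nucleus make AGRP and NPY, which stimulate feeding, POMC, which is cut into ACTH and other peptides, and GHRH, which drives growth hormone release. Oxytocin (OXT) is made in the paraventricular and supraoptic nuclei, and GNRH1 neurons drive the reproductive axis. A reduction of blood flow is also a known trigger of hypoxia genes, of immediate early genes and of adhesion molecules in vessel walls.

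All values below are log2 signals relative to the 75th percentile of the array, so 0 is the level of a bright probe and negative values are dimmer. Differences are BCO minus control. On the 8 arrays the 75th percentile lay between 2024 and 2908 units and 77.3% to 86.4% of probes were well above background. Each of 2 slides held 2 arrays of every group. Replicates 1 and 2 lay on slide 1, and replicates 3 and 4 on slide 2. Between the slides 856 of 12940 tested probes differed (6.62%), so slide was a term in the model, and values within each slide are given for some of the genes. Precision is limited by the number of arrays.

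By limma with Benjamini-Hochberg adjustment, 0 of 12940 probes passed an adjusted p of 0.05 in the comparison of BCO with control (0% called, lowest adjusted p = 0.220). At an unadjusted p under 0.05 there were 1092 probes (8.44%), of which 554 were higher (4.28%) and 538 lower (4.16%) in BCO. On all 4 BCO arrays the signal lay above all 4 control arrays for 287 probes (2.22%) and below them for 235 (1.82%). Over all probes the median difference was 0.01 with a median standard error (SE) of 0.16. The absence of a call in the fit of all arrays was not shared by every setting. On slide 2 alone 14 probes passed (0.108%), 12 of them lower, with both probes of AGRP and 1 of NPY the named ones. With the 8 arrays fitted without the estradiol fetuses both AGRP probes passed, and without BCO replicate 2 there were 9 probes, all unnamed. No probe passed for BCO against control in the fit of all arrays, estradiol fetuses included. The sections that follow therefore give each difference with its error and make no call for a single gene.

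Neuropeptide and hormone precursor genes had the lowest median difference of the gene lists. Of 16 measured genes 13 had lower mean signal in BCO (48.5% of all probes) and 3 higher, with a median difference of -1.44. At an unadjusted p under 0.05, 10 of the 16 were lower (all probes, 4.16%) and 0 were higher (all probes, 4.28%). For 7 of them, GHRH, AGRP, GAL, SST, POMC, TAC3 and ADCYAP1, all 4 BCO arrays lay below all 4 control arrays, where 1.82% of probes did so. The median was -1.14 on slide 1 and -1.71 on slide 2, and 5 genes were lower at that threshold on slide 1 alone against 9 on slide 2 alone. In a bulk sample of this kind, fewer cells of a type and less RNA per cell cannot be told apart. The summed linear signal of the 16 genes ran from 35.8 to 58.3 in the control arrays and from 19.0 to 26.6 in the BCO arrays, in units of the 75th percentile. SST and ADCYAP1, with control means of 4.03 and 3.83, were the brightest of them and weigh most in this sum.

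**Figure D1:**
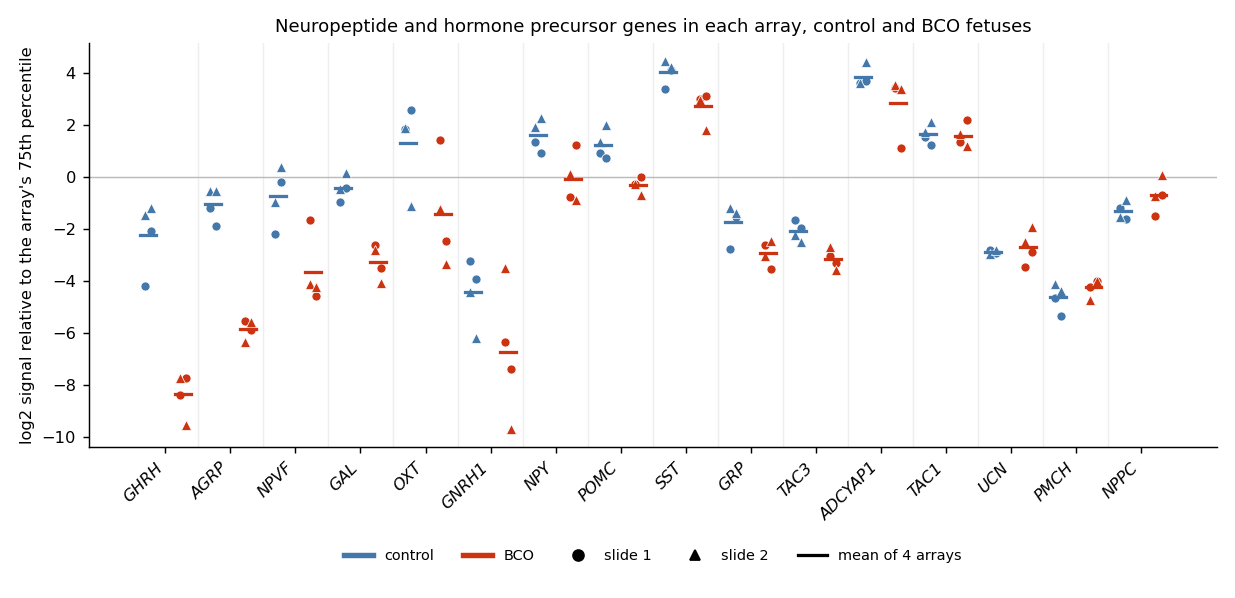
Log2 signal of the 16 measured neuropeptide and hormone precursor genes on each control (blue) and BCO (red) array, with circles for slide 1, triangles for slide 2 and a line at the mean of 4 arrays. From GHRH, with every BCO array at or below -7.74, the genes run in order of their difference to NPPC, whose mean was higher in BCO.

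The probe pairs of AGRP, GHRH and GAL carried the largest of the differences without overlap, and their sequences show how far each pair is independent. The array holds 2 probes of 60 bases for many genes, and for these 3 the pair lies on nearly the same bases, so the agreement of both probes is a technical repeat. Bases shared by both probes of a gene are in capitals (52 of 60 for AGRP, 58 for GHRH and 59 for GAL), written 5′ to 3′.
AGRP, probe A_70_P002722: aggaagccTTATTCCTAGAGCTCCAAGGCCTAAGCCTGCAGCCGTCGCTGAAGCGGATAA
AGRP, probe A_70_P002721: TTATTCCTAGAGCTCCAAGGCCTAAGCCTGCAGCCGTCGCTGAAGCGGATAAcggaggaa
GHRH, probe A_70_P024162: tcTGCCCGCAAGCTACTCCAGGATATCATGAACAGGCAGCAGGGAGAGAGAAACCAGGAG
GHRH, probe A_70_P024161: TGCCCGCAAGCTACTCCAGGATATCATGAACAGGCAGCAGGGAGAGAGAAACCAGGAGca
GAL, probe A_70_P001472: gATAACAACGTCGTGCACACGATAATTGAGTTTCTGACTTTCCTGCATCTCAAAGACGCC
GAL, probe A_70_P001471: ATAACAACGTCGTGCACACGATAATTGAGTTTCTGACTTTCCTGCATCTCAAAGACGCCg

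AGRP, the orexigenic antagonist of melanocortin receptors, read -1.19, -1.90, -0.56 and -0.53 in control replicates 1 to 4 and -5.53, -5.90, -6.35 and -5.59 in BCO replicates 1 to 4. The groups were far apart, and the 4 BCO arrays lay within 1 log2 unit of each other (mean -5.84 ± 0.37, SD, n = 4, against -1.04 ± 0.65 in control). The difference was -4.80 (SE 1.02), a 27.8-fold lower signal, with an adjusted p = 0.319 by limma over all arrays. Its second probe gave -4.87. Under normexp background correction, which adds an offset to every signal, the log2 difference was -3.39. With the 8 arrays alone the adjusted p was 0.00984, and over 29 alternatives it ran from 0.00984 to 0.831. AGRP also varied widely among estradiol fetuses that were never occluded, at -0.14 and 0.92 in estradiol replicates 1 and 2 and at -4.16 and -4.88 in replicates 3 and 4. Low AGRP was therefore seen on 2 sham-occluded arrays of slide 2 as well, and the spread of these arrays enters the SE.

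GHRH, which acts on the growth hormone cells of the pituitary, was at -4.19, -2.07, -1.47 and -1.20 in the control arrays. In the BCO arrays it was at -8.38, -7.76, -7.74 and -9.57 with 0 of the 4 arrays well above background. Against the dimmest signal that counts as well above background on those arrays, GHRH was at least 44.8-fold lower in BCO (means -8.36 ± 0.86 and -2.23 ± 1.36, SD, n = 4 each; limma adjusted p = 0.319). Under normexp background correction the log2 difference was -3.06, smaller than that bound. Estradiol replicates 1 and 2 read -0.61 and 0.06, and replicates 3 and 4 read -3.28 and -6.86, a split by slide like that of AGRP.

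Galanin (GAL), a peptide of many hypothalamic neurons, read -0.98, -0.45, -0.46 and 0.14 in control and -2.63, -3.51, -2.83 and -4.08 in BCO. No BCO array reached the lowest control array. GAL had the lowest p of all named genes here (difference -2.82, SE 0.50, adjusted p = 0.220 by limma, 7.08-fold lower), and was -2.36 on slide 1 and -3.29 on slide 2. POMC, which is cut into ACTH and melanocortins, was at 0.90, 0.71, 1.34 and 1.99 in control and at -0.26, -0.01, -0.28 and -0.69 in BCO. Its groups did not overlap, and the difference was -1.55 (SE 0.46), with -0.94 on slide 1 and -2.15 on slide 2. NPY, which AGRP neurons also make, read 1.35, 0.91, 1.92 and 2.27 in control and -0.78, 1.20, 0.10 and -0.89 in BCO. One occluded fetus, BCO replicate 2, lay inside the control range for NPY, and the difference was -1.71 (SE 0.68). These genes too were lower on slide 2 among estradiol fetuses that were never occluded. In estradiol replicates 1 to 4, GAL read -0.39, 0.06, -1.95 and -2.59, and POMC 2.16, 2.10, 0.41 and 0.38. NPY read 2.45, 3.11, -0.26 and -0.09 there.

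SST, GRP, TAC3 and ADCYAP1 followed with smaller differences. Somatostatin (SST), which inhibits growth hormone release, read 3.37, 4.11, 4.45 and 4.21 in control and 3.00, 3.09, 2.96 and 1.78 in BCO. The groups did not overlap, though control replicate 1 came within 0.5 of the BCO arrays, and the difference was -1.32 (SE 0.39). Gastrin-releasing peptide (GRP) read -2.79, -1.56, -1.21 and -1.39 in control and -2.64, -3.53, -3.04 and -2.48 in BCO. Its groups overlapped through control replicate 1, and the difference was -1.18 (SE 0.29). Neurokinin B (TAC3), a regulator of GNRH1 neurons, read -1.68, -1.99, -2.23 and -2.49 in control and -3.06, -3.30, -2.69 and -3.59 in BCO, without overlap, for a difference of -1.06 (SE 0.40). ADCYAP1, the PACAP precursor, differed by -0.98 (SE 0.46) without overlap, and by -0.40 without BCO replicate 2, whose value of 1.10 stood apart from 3.36 to 3.55 on the others.

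OXT, NPVF and GNRH1 had large differences with wide spread. OXT, the oxytocin precursor, read 1.84, 2.57, 1.88 and -1.12 in control and 1.42, -2.49, -1.23 and -3.37 in BCO. Control replicate 4 and BCO replicate 1 each sat with the other group, and the difference was -2.71 (SE 0.90). NPVF, whose RFamide peptides restrain gonadotropin release, read -2.20, -0.21, -0.96 and 0.36 in control and -1.65, -4.58, -4.11 and -4.25 in BCO. Here too BCO replicate 1 lay in the control range, and the difference was -2.89 (SE 0.93). GNRH1, the gonadotropin-releasing hormone precursor, read -3.23, -3.92, -4.42 and -6.20 in control and -6.34, -7.40, -3.52 and -9.70 in BCO. It was well above background on 2 of the 4 BCO arrays, its groups overlapped, and its difference of -2.30 (SE 1.08) was -0.77 with normexp background correction.

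The remaining 4 precursors did not share the low values. NPPC, the C-type natriuretic peptide precursor, differed by 0.59 (SE 0.28), and PMCH, the melanin-concentrating hormone precursor of the lateral hypothalamus, by 0.38 (SE 0.28). Urocortin (UCN), a stress peptide related to CRH, differed by 0.19 (SE 0.28), and TAC1, the substance P precursor, by -0.07 (SE 0.23). Of these PMCH, UCN and TAC1 changed sign between the slides. On slides 1 and 2 PMCH was 0.88 and -0.13, UCN -0.31 and 0.69, and TAC1 0.38 and -0.51.

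Markers of tissue next to the hypothalamus were read beside these peptides. The pituitary list had 6 of 6 measured genes lower in BCO (48.5% of all probes), 1 of 6 at an unadjusted p under 0.05 (all probes, 4.16%). The list median was -1.0 (-0.22 on slide 1 and -1.66 on slide 2). Its summed linear signal ran from 3.93 to 7.74 in control and from 3.72 to 6.03 in BCO. Prolactin (PRL) read -3.72, -3.46, -3.80 and 1.13 in control and -6.45, -5.88, -4.39 and -2.17 in BCO, so control replicate 4 stood above all other arrays. CGA, the shared subunit of pituitary glycoprotein hormones, read -0.74, -6.47, 1.39 and -2.50 in control and 0.01, -7.45, -6.52 and -6.68 in BCO. Growth hormone (GH) was well above background on 1 array of each group, and its difference of -1.34 (SE 1.30) became 0.40 without control replicate 4. PRL, CGA and GH were all dim on control replicate 2, which still had a summed signal of 3.93, so these 3 genes added little to the sum there. CGA and AGRP were both higher in control replicates 1, 3 and 4 and both low in BCO replicates 2, 3 and 4. BCO replicate 1 had high CGA and low AGRP, and control replicate 2 the reverse. Among estradiol sham fetuses, CGA read -0.84 and 3.45 in replicates 1 and 2. It read -5.22 and -5.20 in replicates 3 and 4, a split by slide like that of AGRP. The part of pituitary tissue in the neuropeptide differences was not tested.

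Choroid plexus genes had 3 of 3 measured members lower (48.5% of all probes), with a median of -0.64. Their summed signals were 21.7 to 29.2 in control and 13.8 to 26.2 in BCO. Transthyretin (TTR), the main choroid marker, read 2.18, 3.69, 1.17 and 0.56 in control and 0.43, 3.85, 0.20 and -1.72 in BCO. These ranges overlapped, and the difference was -1.21 (SE 1.02). Blood genes showed no shared direction. Hemoglobin beta (HBB) read 2.94, 2.03, 2.49 and 5.20 in control and 4.57, 3.34, 2.34 and 4.88 in BCO, and CA1 differed by -0.21 (SE 0.49). Of 2 measured thalamus and telencephalon genes, NEUROD1 differed by -0.72 (SE 0.36) and PAX6 by 0.34 (SE 0.30). The part of choroid plexus, blood and neighbouring brain tissue was likewise not tested.

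**Figure D2:**
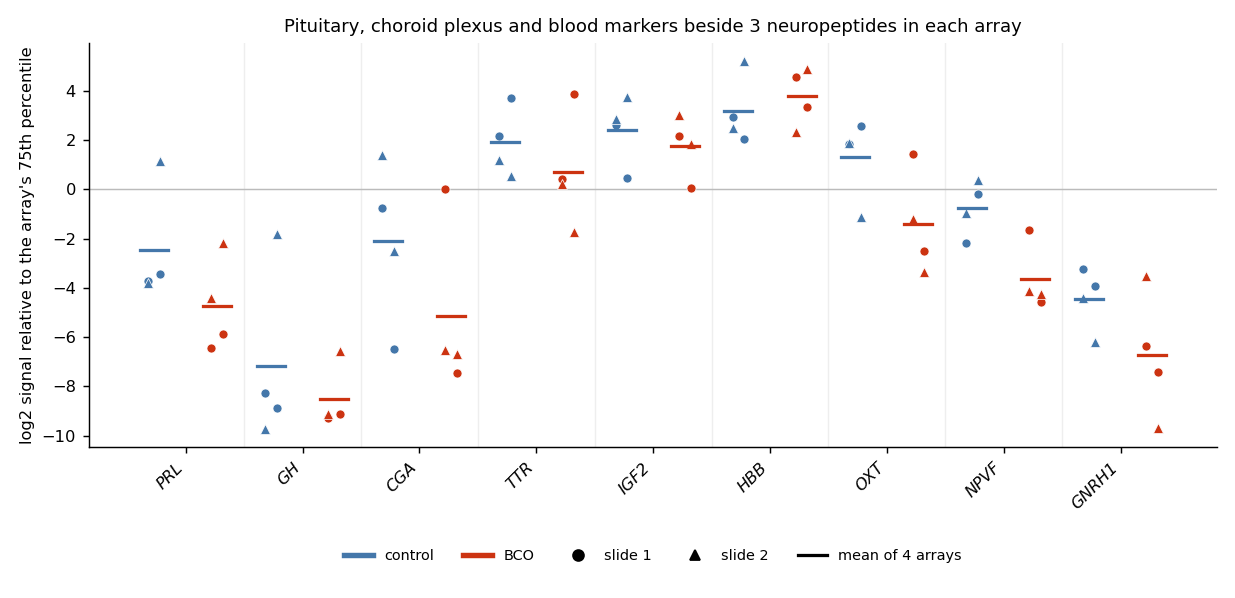
Log2 signal of pituitary (PRL, GH, CGA), choroid plexus (TTR, IGF2) and blood (HBB) markers beside OXT, NPVF and GNRH1 on each control (blue) and BCO (red) array, with circles for slide 1 and triangles for slide 2. PRL at 1.13 and GH at -1.82 mark control replicate 4, and CGA at 0.01 marks BCO replicate 1.

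Receptor lists lay closer to the median of all probes than the neuropeptides did. Among 6 measured steroid and thyroid hormone receptors 4 had lower mean signal (48.5% of all probes), 1 of them at an unadjusted p under 0.05 (all probes, 4.16%). The list median was -0.17, with -0.36 on slide 1 and 0.03 on slide 2. The estrogen receptor ESR1 read -0.52, 0.35, -0.39 and -0.17 in control and -2.05, -1.97, -0.53 and -2.32 in BCO. BCO replicate 3 almost touched the control range, and the difference was -1.53 (SE 0.41). A second ESR1 probe gave 0.30, so the 2 probes of this gene disagreed. ESR2 differed by -0.66 (SE 0.32) and by -0.21 with normexp background correction, and was well above background on 3 control and 2 BCO arrays. The glucocorticoid receptor NR3C1 differed by -0.21 (SE 0.19) and the thyroid hormone receptor THRB by 0.24 (SE 0.15).

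Of 21 measured receptors and binding proteins for peptide hormones, some of them known from the pituitary, 14 had lower mean signal (48.5% of all probes), 2 of them at an unadjusted p under 0.05 (all probes, 4.16%). The median was -0.13, with -0.17 on slide 1 and -0.02 on slide 2. CRHBP, which binds and buffers corticotropin-releasing hormone, read -0.08, 0.20, 0.24 and 0.66 in control and -0.34, -1.29, -0.31 and -1.11 in BCO. Its groups did not overlap, and the difference was -1.02 (SE 0.28). The orexin receptors HCRTR1 and HCRTR2 differed by -0.60 (SE 0.21) and -0.33 (SE 0.15), and the oxytocin receptor OXTR by -0.26 (SE 0.46). The NPY receptor NPY2R differed by -1.03 (SE 0.55), with -0.15 on slide 1 and -1.92 on slide 2, and by -0.22 with normexp background correction. AVPR1B, the vasopressin receptor of pituitary corticotrophs, was higher by 0.81 (SE 0.56). BRS3, an orphan receptor of hypothalamic neurons that governs energy balance, read -3.01, -2.76, -3.08 and -3.20 in control and -4.32, -3.88, -3.84 and -4.86 in BCO. For BRS3 the 4 BCO arrays all lay below control, with a difference of -1.21 (SE 0.32) that was -1.21 on each slide.

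NR5A1, which marks the ventromedial nucleus, was well above background on 2 control arrays and on 0 BCO arrays, and was at least 1.47-fold lower in BCO. Its measured means were -7.16 ± 0.96 in control and -9.34 ± 0.32 in BCO (SD, n = 4 each; limma adjusted p = 0.443). Control replicate 1 stood apart at -8.60, the slides gave -1.45 and -2.92, and under normexp background correction the log2 difference was -0.27, smaller than that bound. ISL1, a factor of arcuate neurons, read -2.06, -2.18, -1.47 and -1.38 in control and -3.07, -1.70, -2.67 and -4.61 in BCO. Its difference of -1.24 (SE 0.50) was almost all on slide 2, with -0.27 on slide 1 and -2.22 on slide 2. ARNT2, a partner factor in neuroendocrine neurons, differed by -0.05 (SE 0.14) by its brighter probe and by -0.60 by the other. The prohormone convertase PCSK1, which cuts many of these precursors, differed by -0.56 (SE 0.22) without overlap, and carboxypeptidase E (CPE), which trims them, by 0.06 (SE 0.11).

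Among the 12 named genes higher in BCO with the lowest p, most differences were below 1 log2 unit. AGGF1, an angiogenic factor, read 0.08, 0.12, 0.14 and -0.01 in control and 0.56, 0.56, 0.38 and 0.61 in BCO. These tight groups did not overlap, and the difference was 0.44 (SE 0.09, limma adjusted p = 0.303, 1.36-fold), with 0.46 and 0.42 on the slides. KITLG, the ligand of the KIT receptor, read -3.86, -3.96, -4.22 and -4.56 in control and -2.78, -1.86, -3.08 and -1.33 in BCO. All BCO arrays were above control, for a difference of 1.89 (SE 0.50, limma adjusted p = 0.418, 3.71-fold) and 2.31 by a second probe that starts 40 bases away. CD247, the zeta chain of the T cell receptor complex, differed by 1.10 (SE 0.39) and NOX4, a superoxide-forming oxidase, by 0.74 (SE 0.24), both without overlap. With normexp background correction NOX4 differed by 0.35.

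Smaller differences without overlap came from CPT1A, which admits fatty acids to mitochondria (0.45, SE 0.14), from MCL1, an inhibitor of apoptosis (0.33, SE 0.11), and from the chloride channel gene listed as CLC4 (0.33, SE 0.12). YWHAE, a 14-3-3 adaptor, gave 0.32 (SE 0.10) by its brighter probe and -0.03 by the other. The NMDA receptor subunit GRIN1 (0.55, SE 0.19, with 0.21 on slide 1 and 0.88 on slide 2), the vitamin K enzyme GGCX (0.39, SE 0.11) and the actin-severing protein CFL1 (0.25, SE 0.08) overlapped control by 1 array or more. A second CFL1 probe gave 0.02. On the lower side, outside the neuropeptides and receptors, stood amphiregulin (AREG), a ligand of the EGF receptor. It read -2.64, -1.97, -2.60 and -3.38 in control and -3.27, -3.49, -3.65 and -4.62 in BCO, overlapping at 1 array, for a difference of -1.11 (SE 0.29). The axon guidance gene SLIT2 differed by -0.48 (SE 0.16) without overlap, by -1.20 with its second probe and by -0.12 with normexp background correction.

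Some inflammatory genes were high on the BCO arrays of slide 2 and not on those of slide 1. Of 23 measured members of the inflammation list 15 had higher mean signal (51.5% of all probes), with a median of 0.17 (0.09 on slide 1 and 0.18 on slide 2) and with 2 higher and 2 lower at an unadjusted p under 0.05 (all probes, 4.28% and 4.16%). SELP, the adhesion molecule P-selectin of activated endothelium and platelets, read -5.73, -5.08, -5.85 and -6.63 in control and -4.92, -5.34, -2.75 and -3.98 in BCO. Only BCO replicates 3 and 4 exceeded every control array clearly, and the difference of 1.57 (SE 0.47) was 0.28 on slide 1 and 2.87 on slide 2. A second SELP probe gave 1.91, and normexp background correction gave 0.86 for the first. The inhibitor of NF-kappa B, NFKBIA, which that factor itself induces, read 0.37, 0.67, 0.43 and 0.24 in control and 0.46, 0.85, 2.34 and 1.78 in BCO, with 0.14 on slide 1 and 1.72 on slide 2.

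BCO replicates 3 and 4 were also high for CXCL8, ICAM1 and IL1A, and replicate 4 for IRF1, 4 genes chosen after their values were seen. CXCL8, the neutrophil chemokine interleukin 8, read -5.16, -4.48, -5.25 and -4.76 in control and -6.15, -4.90, -0.27 and -0.83 in BCO. ICAM1, a leukocyte adhesion molecule of endothelium, read -5.24, -5.54, -5.00 and -4.60 in control and -5.29, -4.62, -1.06 and -1.91 in BCO. BCO replicates 3 and 4 were over 2 log2 units above every control array for both. Replicates 1 and 2 lay near the control range, apart from replicate 1 for CXCL8, which was below it. The cytokine IL1A was 0.25 on slide 1 and 1.69 on slide 2. IRF1, an interferon-induced factor, gave 0.59 and 2.04, with the spot of BCO replicate 3 set to missing, so that its BCO mean rests on 3 arrays. The vessel peptide endothelin 1 (EDN1) gave 0.09 and 1.15, and the immediate early genes JUNB and CCN1 gave 0.14 and 1.35, and -0.35 and 1.66.

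A test of the difference on slide 2 minus that on slide 1, added after these values were seen, found 0 of 12940 probes at an adjusted p of 0.05 (0% called) and 715 at an unadjusted p under 0.05 (5.53%). In it SELP differed by 2.59 (unadjusted p = 0.00306), CXCL8 by 5.16 (0.0131), CCN1 by 2.01 (0.0115) and ICAM1 by 2.88 (0.0767), each with an adjusted p of 0.82 by limma. High values of these genes were not limited to occluded fetuses. Estradiol replicate 1, a sham fetus on slide 1, read -1.85 for CXCL8, -1.78 for ICAM1 and 1.97 for NFKBIA. In estradiol+BCO fetuses, ICAM1 read -3.88, -1.67, -1.28 and -3.12, above every control array. Inflammatory genes did not all take part. IL6 read -4.68, -4.66, -4.76 and -4.61 in control and -4.98, -5.28, -5.21 and -5.55 in BCO, lower on every BCO array (-0.58, SE 0.18), with -0.22 under normexp background correction. IL1B differed by -0.35 (SE 0.15), TNF by 0.29 and the prostaglandin synthase PTGS2 by 0.17 (SE 0.57).

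**Figure D3:**
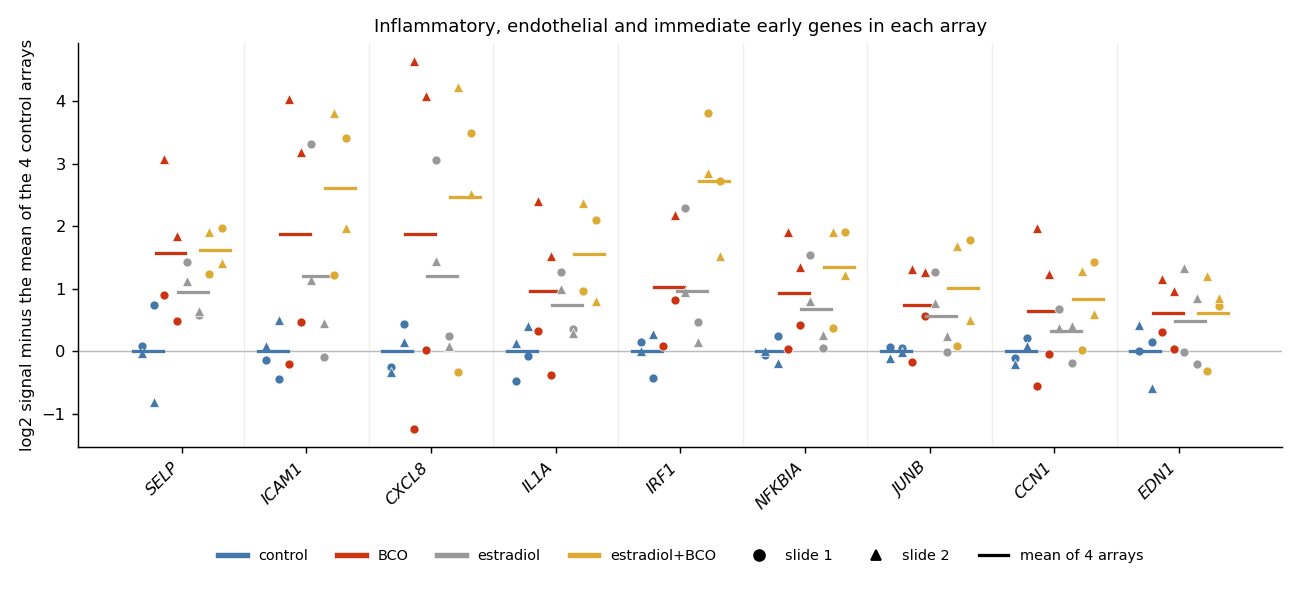
Log2 signal minus the mean of the 4 control arrays for 9 inflammatory, endothelial and immediate early genes on each array of the control (blue), BCO (red), estradiol (gray) and estradiol+BCO (yellow) groups, with circles for slide 1, triangles for slide 2 and a line at the group mean. The red triangles, BCO replicates 3 and 4, lie above the control arrays wherever they have a value, while the red circles stay nearer to 0, and the BCO line of IRF1 is a mean of 3 arrays because 1 spot is missing.

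Genes known to respond to low oxygen showed small differences. Of 12 measured hypoxia and glycolysis genes 11 had higher mean signal (51.5% of all probes), with a median of 0.07 against 0.01 for all probes, and 1 was higher at an unadjusted p under 0.05 (all probes, 4.28%). That gene was SLC2A3, the neuronal glucose transporter, which read 3.48, 3.60, 3.57 and 3.41 in control and 3.69, 3.48, 4.10 and 4.10 in BCO. BCO replicates 3 and 4 were again the high ones, with 0.04 on slide 1 and 0.61 on slide 2 (0.32 over both, SE 0.14), and a second probe gave 0.10. The barrier glucose transporter SLC2A1 differed by 0.26 (SE 0.12) and by 0.07 with its second probe, and VEGFA, the vascular growth factor, by 0.37 (SE 0.20). ARNT, the partner of hypoxia-inducible factors, was dim, with a control mean of -6.72. It differed by 0.75 (SE 0.36), with 1.19 on slide 1 and 0.30 on slide 2, and by 0.26 with normexp background correction. HIF1A, whose activity is set mainly at the protein level, differed by 0.02 (SE 0.21), and its sign turned in 8 of 30 alternatives.

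Immediate early genes, which neurons switch on within minutes of activity, had 3 of 7 measured members higher (51.5% of all probes). At an unadjusted p under 0.05 there were 0 of them in either direction (all probes, 8.44%). FOS read -0.94, 0.02, 0.41 and 0.08 in control and -0.41, -0.40, 0.16 and 0.15 in BCO. The ranges coincided, with a difference of -0.02 (SE 0.27) whose sign turned in 5 of 30 alternatives. EGR1 differed by -0.11 (SE 0.14) by its brighter probe and by 0.60 by the other, and JUNB by 0.74 (SE 0.41). Steroid enzymes and transport proteins of the stress axis were represented by 4 genes with 0 at that threshold. HSD11B1, which regenerates active glucocorticoid, differed by -0.50 (SE 0.30) and by -1.42 with its second probe. The cholesterol carrier STAR differed by -0.06 (SE 0.30).

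**Figure D4:**
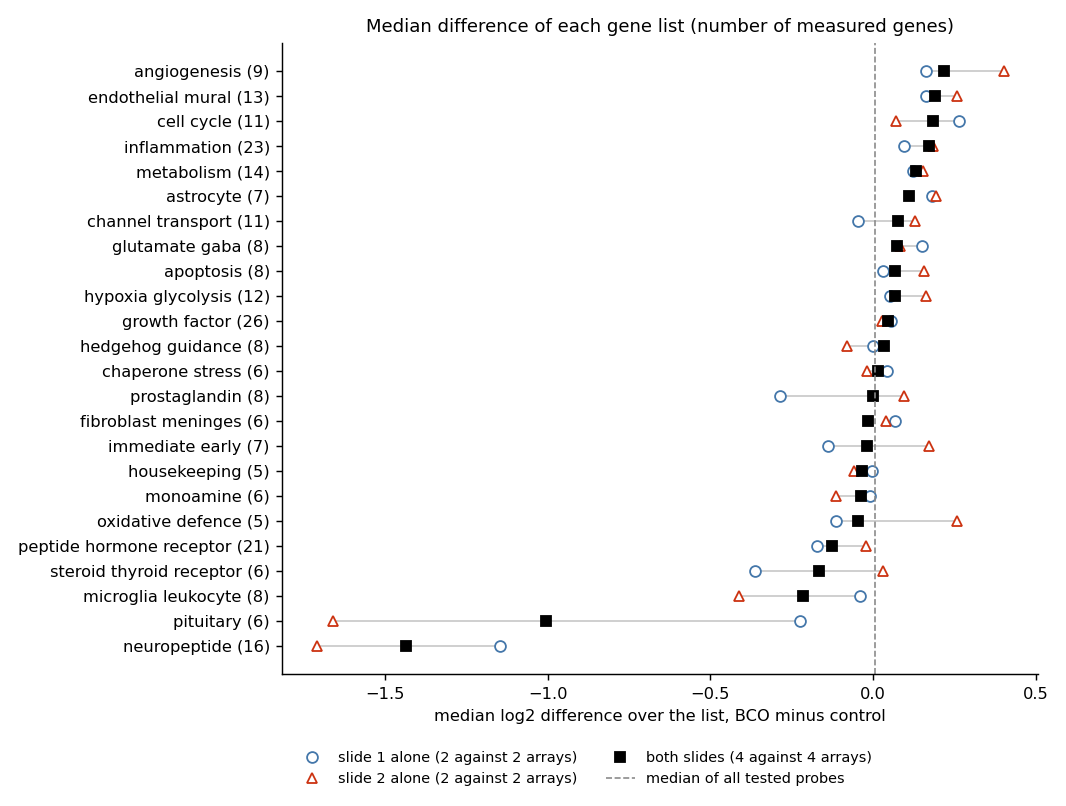
Median log2 difference, BCO minus control, over the measured members of each gene list with at least 5 of them (number in brackets), over both slides (black squares), on slide 1 alone (blue circles) and on slide 2 alone (red triangles), with a dashed line at the median of all tested probes. The neuropeptide list at -1.44 and the pituitary list at -1.0 lie apart from all others, whose medians over both slides run from -0.21 to 0.22.

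Markers of glia and vessels differed little. All 8 measured microglia and leukocyte genes had lower mean signal (48.5% of all probes), with a median of -0.21. At an unadjusted p under 0.05 there were 0 of them (all probes, 8.44%), and their median was -0.04 on slide 1 and -0.41 on slide 2. The integrin subunit ITGB2 differed by -0.36 (SE 0.18) and CD14 by -0.18 (SE 0.18). Astrocyte genes had a median of 0.11 over 7 members and summed signals of 90.0 to 128 in control and 92.6 to 127 in BCO. The filament gene GFAP differed by 0.48 (SE 0.27) and the water channel AQP4 by -0.37 (SE 0.17). Of 13 endothelial and mural genes 10 had higher mean signal (51.5% of all probes; median 0.19). SELP was higher and ROBO4 lower at an unadjusted p under 0.05 (all probes, 4.28% and 4.16%). ROBO4 gave -0.81, with -0.31 on slide 1 and -1.31 on slide 2, and 0.03 by a second probe. NEFH, a neurofilament subunit and the only neuronal structural marker measured, read -2.43, -3.37, -3.42 and -3.46 in control and -2.51, -2.82, -2.38 and -1.72 in BCO. It was thus higher by 0.81 (SE 0.32) with overlap at control replicate 1, in the opposite direction to the neuropeptides. Oligodendrocyte genes were not among the tested named probes (0 measured).

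The remaining lists had medians nearer to that of all probes than the neuropeptide list. Of 6 measured monoamine genes 2 were lower at an unadjusted p under 0.05 (all probes, 4.16%), with a list median of -0.04. AANAT differed by -0.52 (SE 0.19), by -1.23 with its second probe and by -0.35 with normexp background correction. SLC6A4 differed by -0.52 (SE 0.22) and by -0.09 with that correction, and was well above background on 2 control arrays and 0 BCO arrays. Angiogenesis genes had a median of 0.22 over 9 members, with AGGF1 the only one at an unadjusted p under 0.05 (all probes, 8.44%). Of 11 cell cycle genes 9 had higher mean signal (51.5% of all probes; median 0.18), with the mitotic kinase CDK1 at 0.54 (SE 0.25) and the cyclin CCND3 at -0.19 (SE 0.09). CDK1 was 1.02 on slide 1 and 0.07 on slide 2. Of 14 metabolism genes 2 were higher and 1 lower at an unadjusted p under 0.05 (all probes, 4.28% and 4.16%). These were CPT1A, the demethylase gene FTO (0.30, SE 0.12) and the adipogenic factor PPARG (-0.36, SE 0.14). Of 8 glutamate genes, receptors and the dehydrogenase GLUD1, 7 had higher mean signal (51.5% of all probes), with a median of 0.07. GRIN1 was the only one of them at that threshold (all probes, 8.44%). The prostaglandin receptor PTGER1 differed by -0.87 (SE 0.32), by -0.34 on slide 1 and -1.41 on slide 2, and by -0.37 with normexp background correction. Reference genes differed little, with TBP at -0.06 (SE 0.08) and RPL13A at 0.07 (SE 0.08).

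Most probes of this array lack a gene name, and 3 unnamed probes in each direction had p-values at or near the lowest. Probe A_70_P048386 read -1.76 to -1.43 in control and -1.18 to -0.82 in BCO (0.57, SE 0.10, limma adjusted p = 0.220). A_70_P016916, annotated in the files as lipoprotein lipase, differed by 0.62 (SE 0.11) without overlap. The probe that stood for LPL, the lipoprotein lipase gene, differed by 0.28 (limma unadjusted p = 0.131). Lower were A_70_P049141 (-1.54, SE 0.28), A_70_P038771 (-1.30, SE 0.27) and A_70_P037694 (-0.59, SE 0.13), also without overlap. The last probe has a sequence that a reader can match to a current annotation.
A_70_P037694: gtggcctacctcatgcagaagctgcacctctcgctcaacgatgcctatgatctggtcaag

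The difference with occlusion was then set against the same difference in estradiol-treated fetuses, which share no array with it. For 3 of 12940 probes the 2 differences were unequal at an adjusted p of 0.05 by limma (0.0232% called), with 1104 at an unadjusted p under 0.05 (8.53%), 686 of them higher without estradiol (5.3%) and 418 lower (3.23%). With estradiol, occlusion itself gave 1 probe at an adjusted p of 0.05 (0.00773%) and 1146 at an unadjusted p under 0.05 (8.86%). The 3 probes with unequal differences are unnamed and were chosen after their values were seen. Probe A_70_P055401 differed by 0.33 without and -0.96 with estradiol, A_70_P036801 by 0.40 and -0.68, and A_70_P005946 by 0.54 and -0.49. These gaps were 1.30, 1.08 and 1.03, each with an adjusted p of 0.017. The count was 5 without BCO replicate 1, 0 without control replicate 4, BCO replicate 3, estradiol replicate 2 or any of estradiol+BCO replicates 2, 3 and 4, and 1 without estradiol replicate 4. The second of the 3 probes has this sequence.
A_70_P036801: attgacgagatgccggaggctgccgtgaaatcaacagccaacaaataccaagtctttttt

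Neuropeptide genes had a median difference of -0.06 with occlusion in estradiol-treated fetuses, where 2 of 16 were lower and 1 higher at an unadjusted p under 0.05 (all probes, 5.01% and 3.85%). For 6 of the 16 genes the 2 differences were unequal at an unadjusted p under 0.05 (all probes, 8.53%), and 0 passed after adjustment. OXT differed by -2.71 without and by 1.64 with estradiol (gap -4.35, SE 1.28, limma adjusted p = 0.324). GAL gave -2.82 and 0.10 (gap -2.92, SE 0.70, adjusted p = 0.198 by limma), NPVF -2.89 and 0.80, and GRP -1.18 and 0.33. The estradiol sham arrays behind the GAL gap were split by slide, at -0.39 and 0.06 on slide 1 and -1.95 and -2.59 on slide 2. SST gave -1.32 and -0.10. GHRH, the last of the 6, gave -6.13 and -1.83 (gap -4.30, SE 1.87), with the BCO arrays without estradiol not well above background. In contrast TAC3 gave -1.06 and -1.10, and NPY -1.71 and -1.44. AGRP gave -4.80 and -2.22 (gap -2.58, SE 1.44), with the sham and occluded arrays of slide 2 all at -4.16 or below among estradiol fetuses.

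Among other named genes AGGF1 differed by 0.44 without and by -0.29 with estradiol (gap 0.74, SE 0.13, limma adjusted p = 0.0894), which was the lowest p of the named genes. AREG gave -1.11 and 0.84 (gap -1.95, SE 0.41), FTO 0.30 and -0.50 (gap 0.80, SE 0.17), and PSIP1, a chromatin-bound coactivator, 0.43 and -0.47 (gap 0.89, SE 0.21). HCRTR1 gave -0.60 and 0.50. Also of opposite sign were COX5A, a subunit of cytochrome c oxidase (0.65 and -1.01), PYGM, the muscle glycogen phosphorylase (0.39 and -0.65), and SLC25A6, a mitochondrial carrier of ADP and ATP (-0.22 and 0.25). Without AGGF1, the adjusted p of these 7 gaps ran from 0.137 to 0.327 by limma. CD247 was higher in both settings (1.10 and 1.17), as was KITLG (1.89 and 0.99).

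**Figure D5:**
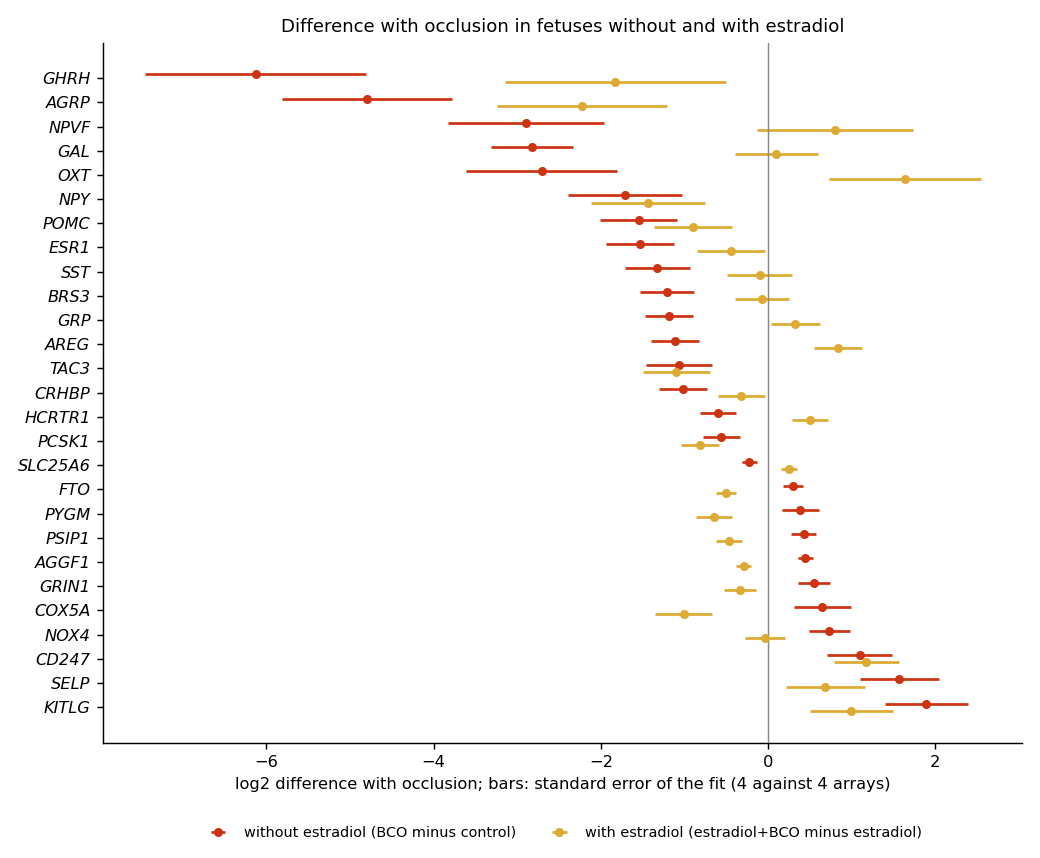
Log2 difference with occlusion in fetuses without estradiol (red, BCO minus control) and with estradiol (yellow, estradiol+BCO minus estradiol) for 27 named genes, with the standard error of the fit as bars (4 against 4 arrays each). OXT, NPVF, GAL, GRP, AREG and HCRTR1 lie below 0 without and above 0 with estradiol, while GHRH, AGRP, NPY, POMC and TAC3 lie below 0 in both.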

How the data were processed

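Hypothalamic RNA of each fetus was run by the authors on its own Agilent sheep array in 1 color (Cy3). Per the file headers, the scanner software was Feature Extraction. The deposited scanner files give the processed signal as an intensity, already background-subtracted by the authors, and, as other kinds of value, spot flags in the deposited files. The deposited value table holds log2 values, found to be log2 processed signal less a constant per array. Here log2 processed signal was scaled to the 75th percentile of each array over non-control probes. Spots that the scanner software marked as uneven or outlying were treated as missing (3 to 36 on the 8 arrays). Probes were tested where well above background on at least 4 of 16 arrays, which kept 12940 of 15008.

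Of 15008 probes 1575 carried 1 of 963 names (698 through the accession, 497 through the symbol, 125 through the gene identifier, 80 by description, 20 by synonym, and 155 kept the name in the files), using RefSeq sheep gene names (assembly ARS-UI_Ramb_v3.0, names alone). A further 8 probes whose name and accession differed were left unnamed. Probe sequences came from the deposited files. The brightest tested probe stood for a gene, which gave 855 named genes. Of genes with 2 tested probes, 198 pairs started within 10 bases of each other.

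A model with 4 groups and slide was fitted in limma 3.58.1 (R 4.3.3) to 16 arrays, with 2-sided tests and Benjamini-Hochberg adjustment over all tested probes. The script was tested on simulated data. Gene lists were described by counts and medians, with no set test. Where a gene was well above background on no array of a group, its fold is a bound, the mean of the brighter group over the mean, per array, of the higher of the dimmest well-above-background signal and the probe's own. Named in the text are the 12 genes of lowest p in each direction, all members of the neuropeptide and hypothalamic transcription factor lists, up to 4 members of each other list by p, a panel of stress, estrogen and hypoxia genes, the 5 genes of each sign with the lowest p for the difference with estradiol, and 3 unnamed probes a direction. Some genes that the rule picks are not reported here and were left out of the lists. The members, lists and rule were chosen with earlier results of these data known. CXCL8, ICAM1, IL1A and IRF1 and the probes with unequal differences were added after their values were seen. Alternatives covered scaling, background correction, the filter, slide and replicate terms, the arrays fitted and each array left out.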

Additional observations from a re-analysis of the deposited data

Results flagged for a closer look

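Among 290 sets of 4 arrays (each named gene in control and in BCO), 23 had 1 array apart from the other 3 by Dixon's criterion, where chance gives about 1 in 20. BCO replicate 4 held 6 of them, control replicate 2 held 5, BCO replicate 1 held 4, and control replicate 3 held 0.

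In BCO replicate 4, CPT1A was at 0.02 (others 0.38 to 0.39), NOX4 at -5.79 (-5.14 to -5.07), CD247 at 0.91 (-0.35 to -0.21), SST at 1.78 (2.96 to 3.09), GH at -6.55 (-9.29 to -9.12) and OXTR at -7.93 (-6.27 to -5.94). BCO replicate 1 had NPVF at -1.65 (others -4.58 to -4.11), CGA at 0.01 (-7.45 to -6.52), NOS3 at -2.61 (-2.26 to -2.19) and NOS1 at -8.05 (-6.54 to -6.24). BCO replicate 2 was low for ADCYAP1 at 1.10 (3.36 to 3.55) and NEUROD1 at -4.66 (-2.85 to -2.62), and BCO replicate 3 was high for DCN at 2.25 (1.59 to 1.70).

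Control replicate 2 stood apart for ESR2 at -5.47 (others -6.33 to -6.25), CD3E at -2.42 (-3.35 to -3.20), FBLN1 at -2.77 (-2.39 to -2.35), PTGDS at 6.36 (5.92 to 5.99) and DCN at 1.23 (2.01 to 2.09). Control replicate 1 stood apart for NR5A1 at -8.60 (-6.75 to -6.59), NEFH at -2.43 (-3.46 to -3.37) and PTCH1 at -4.43 (-4.06 to -4.0). Control replicate 4 was high for PRL at 1.13 (-3.80 to -3.46) and ADCYAP1 at 4.42 (3.61 to 3.68).

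The difference with occlusion was unequal without and with estradiol for A_70_P055401 (gap 1.30), A_70_P036801 (1.08) and A_70_P005946 (1.03), by the limma interaction term (adjusted p = 0.017 each).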

How the results depend on the processing

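In the comparison of BCO with control, 14 probes passed on slide 2 alone, 2 with the 8 arrays alone, 0 to 9 on leaving out 1 array (9 without BCO replicate 2), and 0 in the other alternatives, including the added test of slide 2 minus slide 1. For the difference without against with estradiol, the 3 probes became 1 with no slide term or with slide as a random block, 0 on slide 1 or slide 2 alone, and 0 to 5 on leaving out 1 array. Neuropeptide genes lower at an unadjusted p under 0.05 numbered 5 on slide 1 alone and 9 to 12 on leaving out 1 array, against 10. The causes were not tested.

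With replicate number as a replicate block in place of slide, 0 probes passed in BCO against control, 3 in the comparison with estradiol, and 11 neuropeptide genes were lower. Same-numbered control and BCO arrays correlated at -0.03 to 0.28, over 0.1 in 3 of 4 pairs. Differently numbered control and BCO arrays of the same slide correlated at 0.05 to 0.23, and slide was not removed from these values. The correlations cannot tell pairing from slide, and the numbers were not taken as pairing.

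Of 146 named genes and probes 107 kept their sign in every alternative and 39 did not. Of their 4354 values 89 moved by more than 1 SD and 3 passed the threshold (AGRP on slide 2 alone and with the 8 arrays alone, A_70_P005946 without BCO replicate 2). Of 808 list medians 20 moved by more than 1 SD. The inflammation median of 0.17 was 0.00 without BCO replicate 3. The median difference of all probes was -0.00869 under median scaling, 0.00897 under quantile normalization and 0.0134 under normexp background correction, against 0.00620. Normexp background correction moved GHRH (-6.13 to -3.06), NR5A1 (-2.19 to -0.27) and GNRH1 (-2.30 to -0.77) the most among named genes.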
